A study of Mus musculus with 15 samples.

Results

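Itgax, Itgb3, Itgb2l and Cd44 are 4 cell adhesion genes, followed here through sorted T cells of mice with acute graft-versus-host disease. They were picked by name out of 4567 genes in 4 gene tables, and the choice rested on their measured levels in these same libraries. Their levels in the comparisons that guided the choice are therefore given as a description, with no test. Itgax, Itgb3 and Cd44 were picked as genes already high in day 7 cells without active caspase-1, and Itgb2l as the gene high in the cells with it.

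Integrins are surface receptors made of an alpha and a beta chain, which hold cells to other cells and to the matrix and carry signals inward. T cells change their set of adhesion receptors when they leave the resting state, and this helps them to leave lymphoid organs and enter tissues. Cd44 is a receptor for the matrix sugar hyaluronan and is widely used as a surface mark of T cells that have met antigen. The RNA of each gene was measured, and the proteins on the cell surface were not analysed here.

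The study sequenced RNA from CD4 and CD8 T cells sorted from mouse spleen, with oligo-dT priming and paired-end reads, to compare T cells with and without active caspase-1. The sort separated cells by Flica, a dye that attaches to caspase-1 once inflammasomes have switched this enzyme on. Each of 5 groups has 3 libraries, called biological replicates by the labels. The CD4 control and CD8 control groups are Flica-negative T cells of untreated C57Bl/6 mice at day 0. The CD4 Flica-negative, CD8 Flica-negative and CD8 Flica-positive groups are T cells from irradiated allogeneic BALB/c recipients. They were taken at day 7 after transfer of C57Bl/6 T cells with bone marrow. The study treats them as donor cells, but its methods name no antibody that tells C57Bl/6 from BALB/c cells. Its imaging of a transfer of reporter T cells also showed Flica-positive recipient cells. The study's methods give donors and recipients as 6 to 8 weeks old, while some of its figure legends give recipients of 5 to 6 weeks. No group carries a mutation or a drug treatment.

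Limits of the design come from the study's methods and figure legends. Each day 7 library pooled cells of several mice, and each control library came from fewer mice. The stained spleen cells of such a pool were sorted into the groups, so libraries with the same replicate number may share mice. The labels do not state this. The main tests treat all libraries as independent, and a fit with the replicate number as a block is given at the end. A CD4 Flica-positive group was not sequenced, and no group came from recipients of matched cells, so transfer into irradiated hosts, time and the immune response to the host cannot be told apart. Donor T cells had been purified before transfer with a kit or by removing cells that carry B220, CD11b or CD11c, the last being the protein of Itgax. Each gene table lists only genes that passed a significance test and a fold threshold in the comparison it covers. The counts summed over listed genes, from 2143579 to 11046043 per library, are therefore not the depth, which is unknown.

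Levels are normalized counts: the reads counted on a gene in a library, divided by the size factor with which the authors scaled that library. A level is compared between groups of libraries only within a gene, never between genes. Spread is the standard deviation (SD) over n = 3 libraries. A log2 fold change of 1 is a 2-fold difference, and its standard error (SE) comes from the edgeR fit. All libraries are bulk RNA of sorted cells, so fewer cells of a type and less RNA per cell cannot be told apart. The study reported that most Flica-positive T cells took up a dye that enters cells with damaged membranes. Flica-negative cells took up little or none. Whether the sort for RNA left such cells out is not given in the sources used here. The part of dying cells in the Flica-positive values was not tested.

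Itgax encodes the integrin alpha chain CD11c, which pairs with the beta 2 chain, marks dendritic cells and can appear on activated CD8 T cells. In CD4 control cells Itgax had levels of 53.6, 36.7 and 8.89. CD8 control cells gave 89.9, 107 and 137 for Itgax. The values of every control library were low, and the CD8 control libraries all lay above the CD4 control libraries. In the CD4 Flica-negative libraries at day 7 the Itgax levels were 1077, 1343 and 725. CD8 Flica-negative cells had Itgax at 9556, 9238 and 6748. For CD8 Flica-positive cells the Itgax levels were 4875, 6025 and 4804. Itgax was thus far higher at day 7 than in controls in both lineages, with its peak in CD8 Flica-negative cells, and no 2 neighbouring groups overlapped. The mean Itgax level was 8514 ± 1538 (SD, n = 3) in CD8 Flica-negative and 111 ± 23.6 (SD, n = 3) in CD8 control cells, a 76.5-fold difference. CD4 Flica-negative cells had a mean Itgax level of 1048 ± 310.0 (SD, n = 3) and CD4 control cells 33.1 ± 22.6 (SD, n = 3), a 31.7-fold difference. The mean Itgax level of CD8 Flica-positive cells, 5234 ± 685 (SD, n = 3), was 1.63-fold below that of CD8 Flica-negative cells and 47.0-fold above that of CD8 control cells.

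Itgb3 encodes the beta 3 chain, which pairs with the alpha V chain in many cells or with the Itga2b product on platelets, and binds matrix proteins such as fibronectin and vitronectin. Among CD8 control cells Itgb3 had levels of 439, 489.8 and 554. CD4 control cells were different, with Itgb3 levels of 3235, 3259 and 4109. Itgb3 was thus low in resting CD8 cells and high in resting CD4 cells, with no overlap. At day 7 the CD4 Flica-negative libraries had Itgb3 levels of 2843, 3304 and 1858. CD8 Flica-negative cells gave 2729, 3481 and 3002 for Itgb3. The Itgb3 levels in CD8 Flica-positive cells were 2399, 2696 and 2779. All 3 day 7 groups overlapped for Itgb3 on the authors' scale, and the only group that stood apart there was the CD8 control. The mean Itgb3 level was 3534 ± 498 (SD, n = 3) in CD4 control, 3071 ± 381 (SD, n = 3) in CD8 Flica-negative, 2668 ± 739 (SD, n = 3) in CD4 Flica-negative, 2625 ± 199.98 (SD, n = 3) in CD8 Flica-positive and 494 ± 57.7 (SD, n = 3) in CD8 control cells. In that order the neighbours overlapped except for the last pair. From CD8 control to CD8 Flica-negative cells Itgb3 was 6.21-fold higher, while CD4 Flica-negative cells were 1.32-fold below CD4 control cells with overlapping libraries. CD8 Flica-positive cells had an Itgb3 mean 5.31-fold above CD8 control cells and 1.17-fold below CD8 Flica-negative cells.

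On the authors' scale Cd44 was the most even of the 4 genes at day 7. In CD4 control cells the Cd44 levels were 925, 1043 and 1291. CD8 control cells had Cd44 at 747, 861 and 853. The control libraries were all lower than any day 7 library, with CD4 control above CD8 control. For Cd44 the CD4 Flica-negative libraries gave 5295, 5308 and 4897. CD8 Flica-negative cells gave 4562, 4667 and 4076. CD8 Flica-positive cells gave 4017, 5017 and 5342. On the authors' scale the Cd44 levels of the Flica-positive libraries spanned those of the CD8 Flica-negative libraries, so that caspase-1 status did not separate them. With other scalings, described below, the log2 fold change there was -1.17 and -1.18, against 0.11 on the authors' scale. Mean Cd44 fell in the order CD4 Flica-negative 5167 ± 233 (SD, n = 3), CD8 Flica-positive 4792 ± 691 (SD, n = 3), CD8 Flica-negative 4435 ± 315 (SD, n = 3), CD4 control 1086 ± 187 (SD, n = 3) and CD8 control 820.2 ± 63.4 (SD, n = 3), and only the pairs at the top of that order overlapped. Relative to control, Cd44 was 5.41-fold higher in CD8 Flica-negative, 5.84-fold higher in CD8 Flica-positive and 4.76-fold higher in CD4 Flica-negative cells.

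Itgb2l encodes a protein similar to the integrin beta 2 chain and is known mainly from neutrophils. No read was counted on Itgb2l in the 3 CD4 control libraries, and in CD8 control cells 1 library had 7 counts, a level of 6.17, and the others 0. In CD4 Flica-negative cells the Itgb2l levels were 30.9, 55.8 and 51.3. The level was near or at 0 at rest and above that in every day 7 library. CD8 Flica-negative cells had Itgb2l at 87.4, 87.7 and 110.5. CD8 Flica-positive cells had Itgb2l at 1205, 2263 and 3303. The Flica-positive libraries were far above all others, with no overlap, but they also differed most among themselves. The mean Itgb2l level was 2257 ± 1049 (SD, n = 3) in CD8 Flica-positive and 95.2 ± 13.2 (SD, n = 3) in CD8 Flica-negative cells, a 23.7-fold difference. Itgb2l was not limited to Flica-positive cells: its mean in CD8 Flica-negative cells stood against 2.06 ± 3.56 (SD, n = 3) in CD8 control cells, where all 7 counts came from 1 library. In CD4 Flica-negative cells the mean of 46.0 ± 13.3 (SD, n = 3) was at least 15.5-fold above CD4 control, taking a floor of 3 counts per library for the controls at 0. In the order of the means only the CD8 control and CD4 control groups overlapped for Itgb2l.

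**Figure D1:**
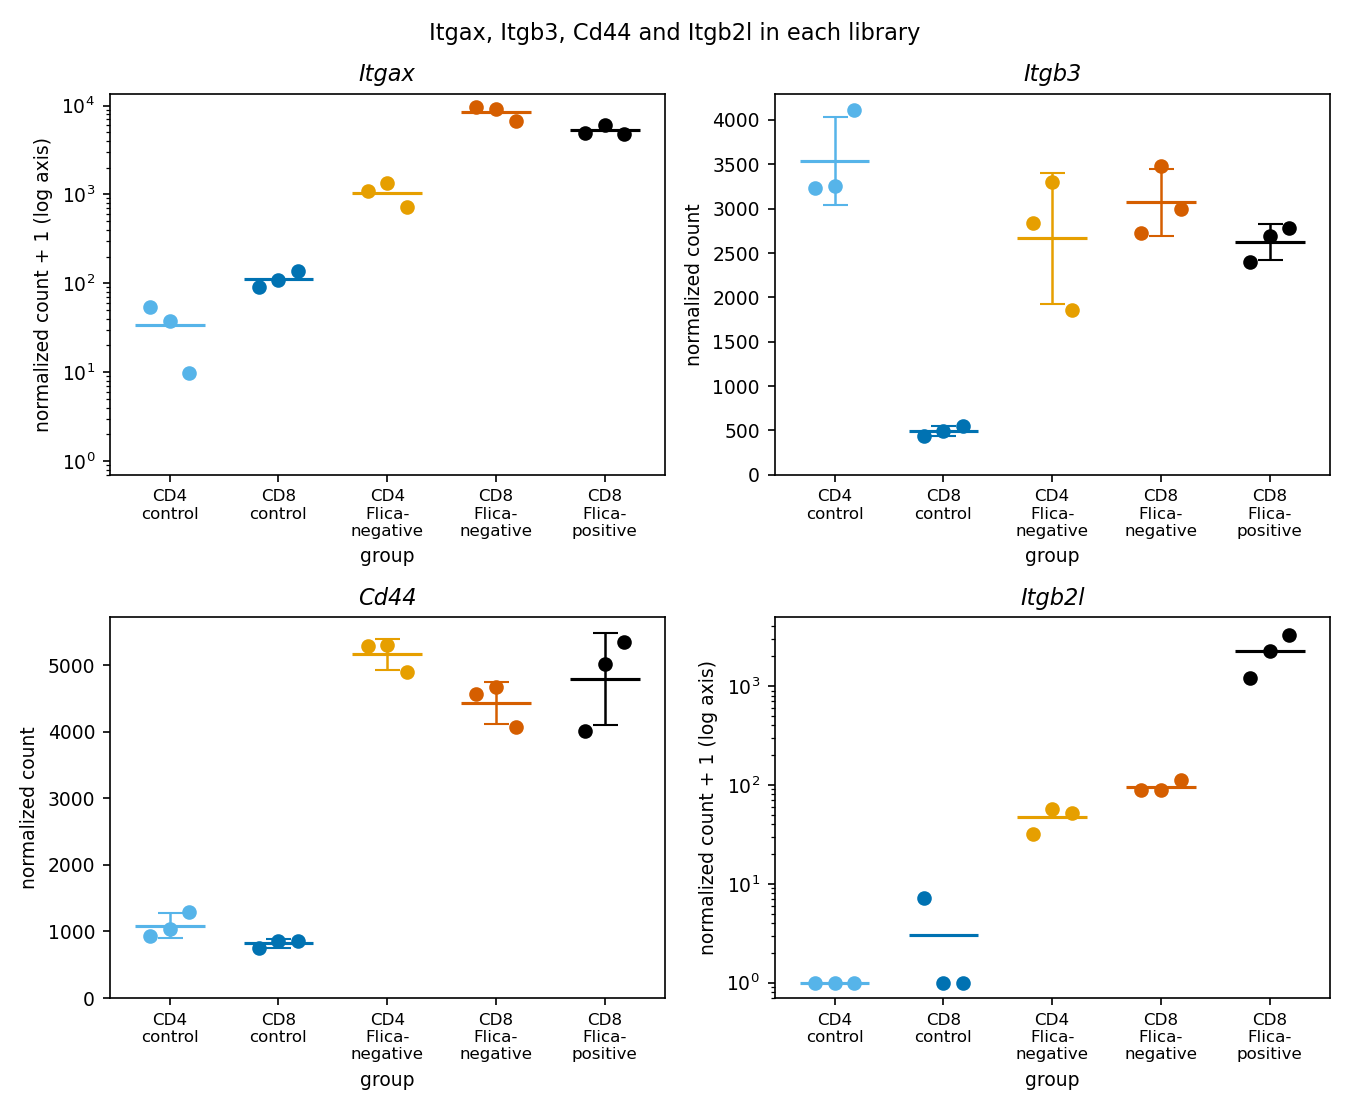
Levels of Itgax, Itgb3, Cd44 and Itgb2l in the 15 libraries, with 1 point per library and a line at the group mean; whiskers in the panels with a linear axis are the SD over 3 libraries, and the log axes show the normalized count + 1. Itgax, Itgb3 and Cd44 in CD8 Flica-negative cells all lie above CD8 control cells, and Itgb2l climbs from a mean of 95.2 in CD8 Flica-negative to 2257 in CD8 Flica-positive cells.

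Values of the Flica-positive cells depend on how the libraries are scaled. The 13 listed genes of the mitochondrial genome held 42.8% to 51.7% of the listed counts there, 15.1% to 16.5% in the Flica-negative groups and 26.1% to 28.8% in controls, and the counts outside it were also higher, 4180321 to 5337419 in CD8 Flica-positive against 2096842 to 2666621 in CD8 Flica-negative libraries. Scaling by TMM, a trimmed mean of ratios over the listed genes, shifted the log2 changes of the listed genes in CD8 Flica-positive against CD8 Flica-negative cells by a median of -1.23, and scaling by the summed counts outside the mitochondrial genome shifted them by a median of -1.29, which turned the sign of Cd44, moved about as far as other genes, and left the signs of Itgax, Itgb3 and Itgb2l. On the authors' scale Cd44 stood at a log2 fold change of 0.11 there, against -1.17 with TMM and -1.18 with non-mitochondrial counts. Itgax went from -0.70 to -1.95 and -2.02 in the same comparison. Itgb3 went from -0.23 to -1.48 and -1.52. Itgb2l went from 4.56 to 3.22 and 3.31. Set against the medians of all listed genes, 0.38 on the authors' scale, -0.79 with TMM and -0.85 with non-mitochondrial counts, Itgb2l lay above and Itgax, Itgb3 and Cd44 lay below on each scale. Against CD8 control cells the median shifts were -1.75 and -1.61 for CD8 Flica-positive and -0.54 and -0.32 for CD8 Flica-negative cells, with no change of direction for the 4 genes. Itgb3 and Cd44 in CD8 Flica-positive against CD8 control cells nevertheless shrank from 2.41 to 0.60 and 0.78 for Itgb3 and from 2.55 to 0.72 and 0.92 for Cd44. In CD4 Flica-negative against CD4 control cells the median shifts were -0.39 and -0.25, and Itgax, Cd44 and Itgb2l stayed above 0 and Itgb3 below 0.

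CD4 and CD8 T cells can be compared in these receptors as well. The 4 genes were chosen on levels in these same libraries, so their differences between lineages are given as a description too, with no test. At day 7 Itgax was 8.12-fold lower in CD4 Flica-negative than in CD8 Flica-negative cells, all 3 CD4 libraries below all 3 CD8 libraries (log2 fold change -3.02, SE 0.21). Itgb2l was 2.07-fold lower in the CD4 libraries, again all 3 of them below the CD8 libraries (log2 fold change -1.05, SE 0.42). Itgb3 had a log2 fold change of -0.20 (SE 0.19) with overlapping libraries, which without CD4 Flica-negative replicate 3 was 0.00110. For Cd44 the value was 0.22 (SE 0.14), with all 3 CD4 libraries higher. TMM scaling shifted the log2 fold changes of the listed genes in this comparison by a median of 0.12, with the directions of the 4 genes kept.

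At rest the lineages stood apart in Itgb3, which was 7.15-fold higher in CD4 control than in CD8 control cells, in all 3 libraries against all 3 (log2 fold change 2.84, SE 0.18). Itgax was 3.36-fold lower in CD4 control cells, all 3 libraries below the CD8 control libraries (log2 fold change -1.76, SE 0.50), and without CD4 control replicate 3, the library with the lowest Itgax level, the log2 fold change was -1.30. Cd44 had a log2 fold change of 0.41 (SE 0.18), with all 3 CD4 control libraries higher. Itgb2l had 7 counts in all 6 control libraries together.

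The change from control to Flica-negative cells can also be set side by side for both lineages, as the CD4 log2 change minus the CD8 log2 change. This difference contains the values on which the 4 genes were chosen, so it is given for them as a description with no test. It was -3.04 (SE 0.29) for Itgb3, with overlapping CD4 libraries and every CD8 Flica-negative library above every CD8 control library. For Itgax it was -1.25 (SE 0.52), with -0.73 without CD4 control replicate 1 and -1.72 without CD4 control replicate 3. Cd44 had a difference of -0.19 (SE 0.23). The Itgb2l difference of 3.19 (SE 1.86) rests on 7 counts in the controls, and without CD8 control replicate 1 it was -1.05. TMM scaling shifted the differences of the listed genes by a median of 0.15, with the direction of each of the 4 genes kept.

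The other integrin chains show how far the 4 genes share their pattern with the family, and they were tested with edgeR. Each p-value measures the spread between these libraries of pooled mice, and was adjusted over all 4567 listed genes by the Benjamini-Hochberg method with a threshold of 0.05. Every listed gene had already passed the authors' own test in a comparison of these same libraries, so the p-values follow that selection and are not independent of it. Of 24 other alpha and beta chain genes, 13 are in the gene tables, and the usual partners Itgb2 and Itgav are not, so their levels were not analysed here. In CD8 Flica-negative against CD8 control cells, 7 of the 13 rose (Itga1, Itga2, Itga3, Itgad, Itgam, Itgb1 and Itgb5) and 4 fell (Itga2b, Itga5, Itga10 and Itgae), where 37.5% of all listed genes were higher and 29.0% lower. Their median log2 fold change was 1.23, against 0.66 over all listed genes. Itga1, a collagen-binding alpha chain, rose from a mean of 6.23 to 2017 (log2 fold change 8.29, SE 0.60, all 3 libraries higher, edgeR quasi-likelihood test, Benjamini-Hochberg adjusted p = 1.06e-06), and its log2 fold change was 9.07 without CD8 control replicate 2. Itgae, the alpha chain CD103 that binds E-cadherin, fell 35.0-fold from 3562 to 102 (log2 fold change -5.13, SE 0.29, all 3 libraries lower, edgeR quasi-likelihood test, Benjamini-Hochberg adjusted p = 2.12e-07). Itgb1, the common beta 1 chain, rose 7.33-fold to 13403 (log2 fold change 2.87, SE 0.19, all 3 libraries higher, edgeR quasi-likelihood test, Benjamini-Hochberg adjusted p = 6.54e-07). TMM scaling kept the directions of these 3 genes and left Itgad below the threshold, and so did leaving out any of 4 libraries: Itgad was 1.23 on the authors' scale and 0.97 to 1.18 without CD8 control replicate 1 or 2 or CD8 Flica-negative replicate 2 or 3. The fall of Itga2b was lost without CD8 Flica-negative replicate 1 or 2, with values of -1.32 and -1.37. In CD4 Flica-negative against CD4 control cells 7 of the 13 rose and 4 fell, with a median of 1.49 against 0.06 over all listed genes, of which 31.1% were higher and 26.5% lower.

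Between CD8 Flica-positive and CD8 Flica-negative cells, on the authors' scale, 4 of the 13 were higher (Itga2b, Itga5, Itga9 and Itgam) and 2 lower (Itga1 and Itga2), where 20.6% of all listed genes were higher and 2.63% lower, and the medians were 0.60 and 0.38. The split of all listed genes was 940 higher and 120 lower on that scale, 528 and 992 with TMM, and 540 and 1126 with non-mitochondrial counts. Itgam, the alpha chain CD11b of myeloid cells, rose from levels of 476, 703 and 513 in CD8 Flica-negative to 1211, 2001 and 2230.3 in CD8 Flica-positive cells, with all 3 libraries higher (log2 fold change 1.68, SE 0.28, edgeR quasi-likelihood test, Benjamini-Hochberg adjusted p = 0.000562). With TMM scaling Itgam stood at 0.39, Itga5 at 0.91, Itga2b at 1.26 and Itga9 at 1.59, all above 0 and none past the threshold. Itga1 and Itga2 were lower on all 3 scales, with TMM values of -1.97 and -2.24, and Itga3 at -1.42 and Itgb1 at -1.78 passed as lower with TMM too, so that 4 of the 13 were lower on that scale. The calls of Itga1 and Itga2 are fragile on the authors' scale, where Itga1 (log2 fold change -0.71) ranged from -0.84 to -0.59 and Itga2 (log2 fold change -1.03) from -1.24 to -0.90 as libraries were left out. Itga1 lost its call without CD8 Flica-negative replicate 1 or 2 or CD8 Flica-positive replicate 1 or 3, and Itga2 without replicate 2 of either group. Itga9, at a mean of 7.39 in CD8 Flica-negative cells, lost its call without any of the 3 Flica-negative libraries or Flica-positive replicate 1, with values from 2.58 to 3.06. Against CD8 control cells, CD8 Flica-positive cells had 7 of the 13 higher and 1, Itgae, lower, with a median of 2.05 against 2.04 over all listed genes, of which 46.8% were higher and 23.9% lower. TMM scaling left 4 higher and 3 lower there, and the split of all listed genes went from 2137 higher and 1093 lower to 1133 and 1644.

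Between lineages at day 7, 3 of the 13 were higher in CD4 Flica-negative than in CD8 Flica-negative cells (Itga9, Itgb1 and Itgb5) and 4 lower (Itga1, Itga3, Itgad and Itgam), where 9.66% of all listed genes were higher and 12.3% lower, and these 7 calls were the same genes with TMM. TMM moved the split of all listed genes there from 441 higher and 563 lower to 514 and 488. Itgb1 levels were 29431, 28845 and 26958 in the CD4 libraries and 16863, 13145 and 10199.8 in the CD8 libraries, so that all CD4 libraries were higher (log2 fold change 1.08, SE 0.14, edgeR quasi-likelihood test, Benjamini-Hochberg adjusted p = 1.63e-05). At rest 4 of the 13 were higher in CD4 control than in CD8 control cells (Itga9, Itgam, Itgb1 and Itgb8) and 2 lower (Itgad and Itgae), where 6.50% of all listed genes were higher and 5.45% lower. The CD4 minus CD8 difference of responses passed for 3 of the 13, higher for Itgae and lower for Itga3 and Itgam, where 5.65% of all listed genes were higher and 4.60% lower. Itgae, with control levels of 4022, 3356 and 3309 in CD8 cells and 52.5, 94.8 and 190.3 in CD4 cells, had the largest of these differences, 5.46 (SE 0.51, edgeR quasi-likelihood test, Benjamini-Hochberg adjusted p = 1.63e-06).

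**Figure D2:**
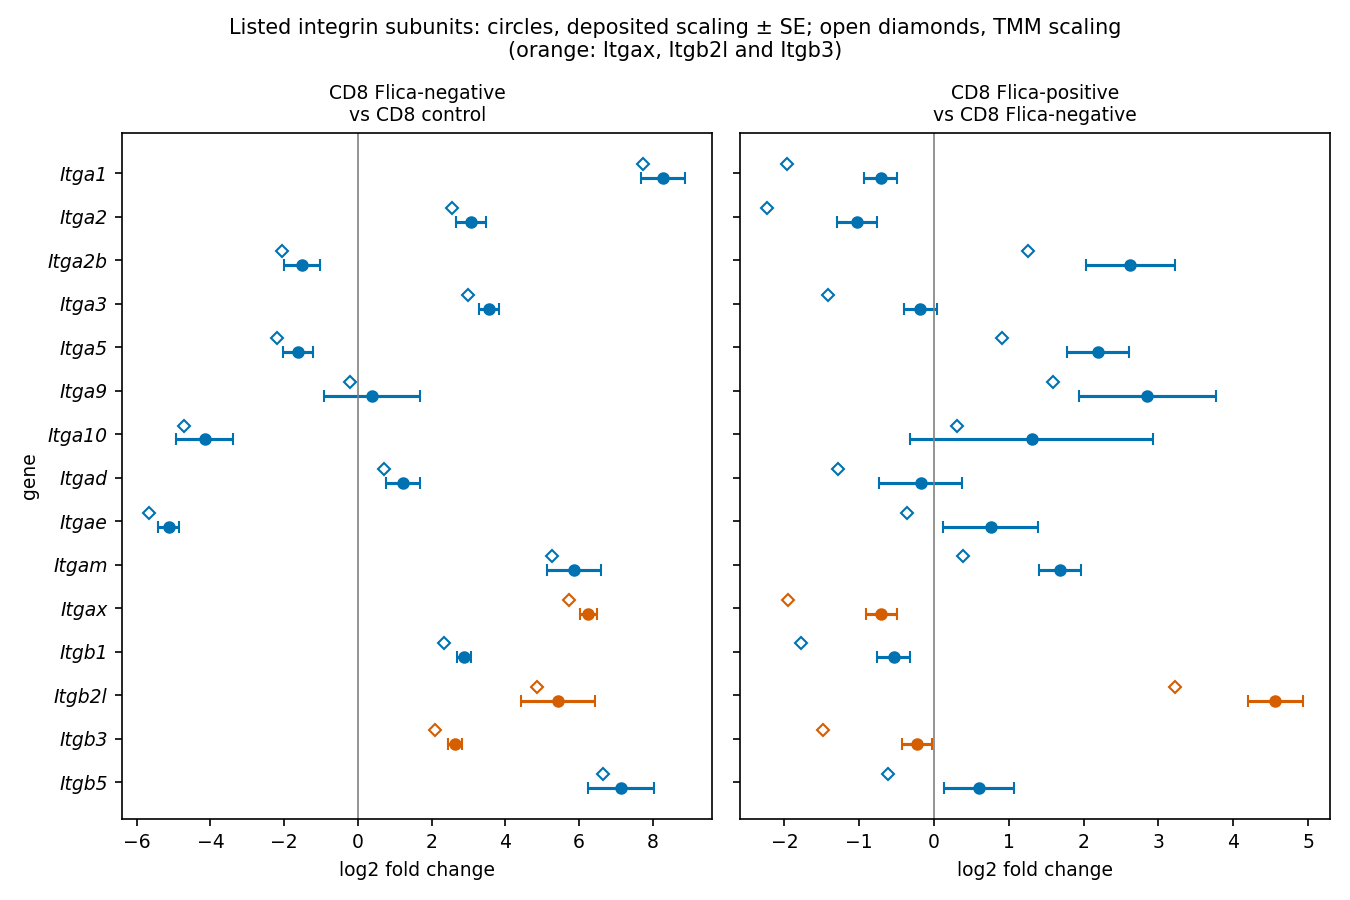
Log2 fold changes of the listed integrin chains in CD8 Flica-negative against CD8 control cells and in CD8 Flica-positive against CD8 Flica-negative cells, from 3 libraries per group; filled circles with SE bars use the authors' scaling, open diamonds TMM, and Itgb8, with 5 counts or fewer in each CD8 group, is not drawn. Itgb2l has the highest value in the right panel on both scales, 4.56 and 3.22, while Itgae and Itgb5 lie above 0 on the authors' scale and below 0 with TMM.

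Genes that act with these receptors were taken from lists. The list genes given with values were picked for the largest changes in their list, so they are not typical of it. Of 28 integrin ligands 9 are in the tables, and in CD8 Flica-positive against CD8 Flica-negative cells 7 of them were higher, where 20.6% of all listed genes were higher and 2.63% lower, with a median of 3.49 against 0.38; with TMM 5 were higher and Esm1 lower, where 528 of 4567 listed genes were higher and 992 lower, with a median of 2.30 against -0.79. Fn1, fibronectin, was 17.3-fold higher (log2 fold change 4.11, SE 0.45, all 3 libraries, edgeR quasi-likelihood test, Benjamini-Hochberg adjusted p = 2.20e-05) and Thbs1, thrombospondin, 29.8-fold higher. Vcam1 and Vwf, among the 7, are also in the macrophage and platelet marker lists. In CD8 Flica-negative against CD8 control cells 4 of the 9 ligands were higher, against 37.5% of all listed genes, among them Esm1, which was at 0 in all CD8 control libraries and at least 333-fold higher by the floor of 3 counts. Among 31 genes of integrin activation 3 are in the tables: Vcl and Skap2, which link integrins to the cell skeleton, were 3.26-fold and 2.84-fold higher in Flica-positive than in CD8 Flica-negative cells on the authors' scale and passed on neither other scale, and Ptk2, the focal adhesion kinase, fell from a mean of 167 in CD8 control cells to 4 counts in 1 CD8 Flica-negative library and 0 in the others.

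Some of the listed Cd44 partners passed in each step, from CD8 control to CD8 Flica-negative and on to CD8 Flica-positive cells. Cd44 itself was high in each day 7 group. Of 31 Cd44 ligands, partners and sheddases 11 are in the tables. In CD8 Flica-negative against CD8 control cells 8 of the 11 rose and Cd74 fell, where 37.5% of all listed genes were higher and 29.0% lower, with a median of 3.87 against 0.66. Hmmr, another hyaluronan receptor that also serves dividing cells, rose 21.4-fold, and Vcan, a matrix proteoglycan, from 4 counts in 1 CD8 control library and 0 in the others to a mean of 92.0. From CD8 Flica-negative to CD8 Flica-positive cells 6 of the 11 were higher, where 20.6% of all listed genes were, with a median of 1.55 against 0.38, and with TMM 4 were higher and 3 lower, where 528 of 4567 listed genes were higher and 992 lower, with a median of 0.25 against -0.79. Mmp9, a protease that can bind Cd44 and is also in the neutrophil list, was 30.4-fold higher (log2 fold change 4.93, SE 0.40, all 3 libraries, edgeR quasi-likelihood test, Benjamini-Hochberg adjusted p = 2.13e-06). Cd74, the invariant chain of class II molecules and a partner of Cd44, had means of 7008, 714 and 6769 in CD8 control, CD8 Flica-negative and CD8 Flica-positive cells. Of the B cell markers, whose part in this was not tested, 13 of 14 listed fell from CD8 control to CD8 Flica-negative cells, with a median of -6.46, and 12 of 14 were lower in CD8 Flica-positive than in CD8 control cells, where 23.9% of all listed genes were, with a median of -4.56 against 2.04. From CD8 Flica-negative to CD8 Flica-positive cells, where Cd74 rose, 5 of 14 listed B cell, 6 of 9 dendritic cell and 14 of 18 macrophage markers were higher.

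Other adhesion and homing genes of T cells were counted in the same way. Of 29 such genes 14 are in the tables, and in CD8 Flica-negative against CD8 control cells 7 rose and 5 fell, where 37.5% of all listed genes were higher and 29.0% lower, with a median of 1.91 against 0.66. Ccr7, a chemokine receptor of resting T cells, fell 38.1-fold. Cx3cr1 rose 316-fold and Ccr2 45.2-fold, both receptors for inflammatory chemokines. In CD8 Flica-positive against CD8 Flica-negative cells 3 of the 14 were higher on the authors' scale, near the 20.6% of all listed genes, with a median of -0.03 against 0.38, and with TMM 1 was higher, Cd24a, and 9 lower, where 528 of the 4567 listed genes were higher and 992 lower, with a median of -1.25. Cd24a was 12.5-fold higher in the Flica-positive libraries.

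The label of effector T cells was checked against marker genes. Of 20 T cell markers only Cd8a is in the tables, so the common T cell genes could not be checked. On the authors' scale Cd8a had levels of 11437, 11492 and 9348 in CD8 Flica-positive and 13841, 14967 and 12817 in CD8 Flica-negative libraries. It had 4.41, 4.46 and 10.4 in CD4 Flica-negative libraries. TMM and non-mitochondrial scaling shifted the listed genes in CD8 Flica-positive against CD8 Flica-negative cells by medians of -1.23 and -1.29. Of 23 activated T cell genes 22 are in the tables, and on the authors' scale all 22 rose from CD8 control to CD8 Flica-negative cells (median log2 change 5.47), where 37.5% of all listed genes did. Over the alternative analyses the Cd69 log2 change there fell as low as 0.31, and its call was lost. All 9 listed genes of 12 resting T cell genes fell, where 29.0% of all listed genes did, with a median of -4.23. Gzmb, a killer cell protease, rose from a mean of 47.5 to 40953. The Flica-negative libraries thus carried the RNA pattern of activated T cells. Of the 22 activated genes 5 were lower in CD8 Flica-positive than in CD8 Flica-negative libraries on the authors' scale, where 2.63% of all listed genes were. With TMM 21 were lower, where 992 of 4567 listed genes were. Without CD8 Flica-negative replicate 2, Fasl at -0.79, Cd69 at -0.86 and Ctla4 at -0.70 lost their calls on the authors' scale. Against CD8 control cells 21 of the 22 were higher in CD8 Flica-positive cells, with a median of 5.04 against 2.04. All 9 listed resting genes were lower there. Of all listed genes 46.8% were higher and 23.9% lower in that comparison.

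Markers of neutrophils rose with Itgb2l. All 23 genes of the neutrophil list are in the tables, and all 23 were higher in CD8 Flica-positive than in CD8 Flica-negative cells on each of the 3 scales, with a median of 4.24, where 20.6% of all listed genes were higher on the authors' scale and 528 of 4567 with TMM. Their summed level was 252430, 468135 and 510186 in the CD8 Flica-positive libraries. In CD8 Flica-negative libraries the sum was 15295, 24876 and 24479. CD4 Flica-negative libraries had sums of 3518, 6007 and 10243. The sums of the 3 day 7 groups fell in the same order as Itgb2l, with no overlap. They were 145, 67.2 and 93.3 in CD8 control and 204, 149 and 139 in CD4 control libraries, where 8 to 17 of the 23 genes, Ly6g and Elane among them, were at 0. The most abundant gene was Ngp, a granule protein, with 49998, 88047 and 114640 in CD8 Flica-positive, 3175, 4011 and 4944 in CD8 Flica-negative and 671, 1108 and 2029 in CD4 Flica-negative libraries. Ngp was 0 to 10.7 in the control libraries.

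Itgb2l was also set against the neutrophil sum of its own library, a ratio that no scaling changes and that was chosen after the values were seen. Per 1000 neutrophil marker counts there were 4.77, 4.83 and 6.47 counts of Itgb2l in the CD8 Flica-positive libraries. In CD8 Flica-negative libraries the ratio was 5.71, 3.53 and 4.51. CD4 Flica-negative libraries gave 8.77, 9.29 and 5.004. Among the control libraries the ratio was 42.4 in CD8 control replicate 1, from 7 counts of Itgb2l, and 0 in the others. The ratios of both CD8 groups overlapped, while the levels of Itgb2l themselves differed 23.7-fold. For Itgax the same ratio was 19.3, 12.9 and 9.42 in CD8 Flica-positive against 625, 371 and 276 in CD8 Flica-negative libraries. Cd44 had 15.9, 10.7 and 10.5 against 298, 188 and 167, and Itgb3 9.50, 5.76 and 5.45 against 178, 139.9 and 123. These ratios are a description, since Itgb2l was chosen for its rise in Flica-positive cells and the other 3 genes were not. The sort gated on CD4 or CD8 T cells, and the purity of the sorted fractions is not given in the sources used here. The part of other cells in the Itgb2l result was not tested.

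**Figure D3:**
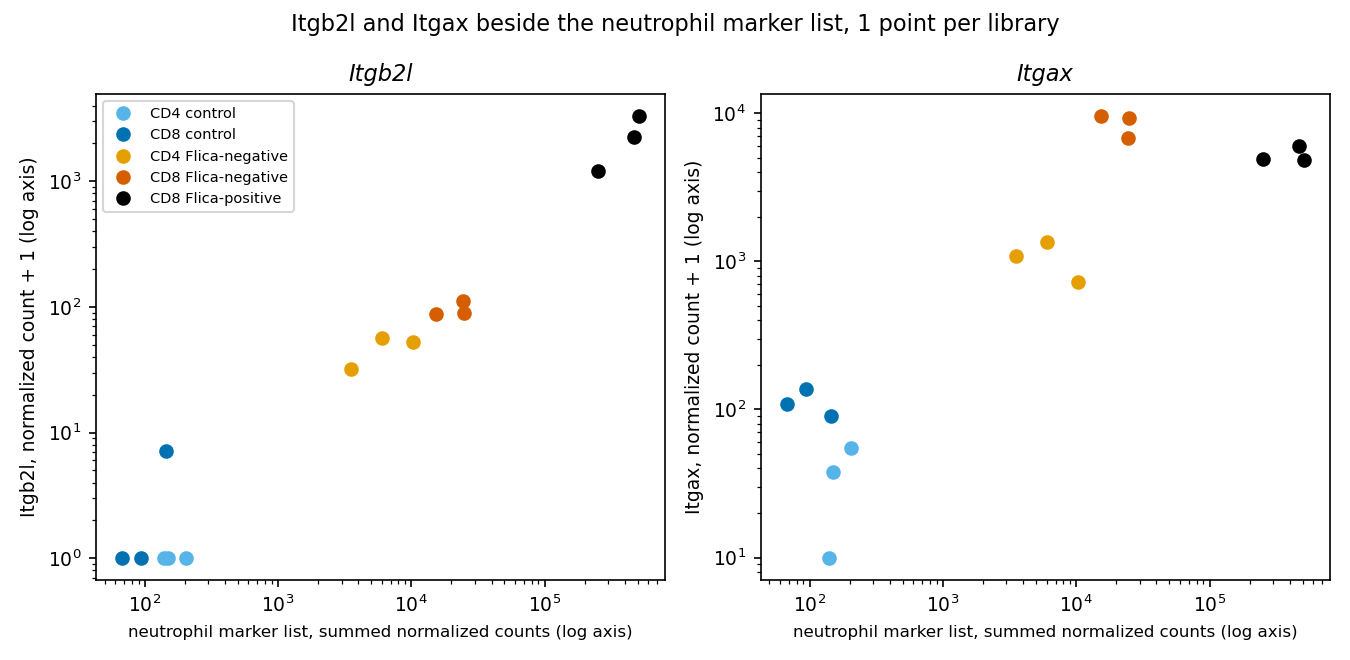
Normalized counts + 1 of Itgb2l and Itgax against the summed normalized counts of 23 neutrophil marker genes, both on log axes, with 1 point for each of 15 libraries. Itgb2l climbs with the neutrophil sum through the 3 day 7 groups, while Itgax has its highest values, 6748 to 9556, in the CD8 Flica-negative libraries and not in the CD8 Flica-positive libraries with sums of 252430 or more.

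Further marker lists were compared between CD8 Flica-negative and CD8 Flica-positive libraries, and their part in the result was not tested. Counts and sums are on the authors' scale, where 20.6% of all listed genes were higher and 2.63% lower. Of the macrophage list, 18 of 22 genes are in the tables and 14 were higher in Flica-positive libraries. Its sum was 17184, 19650 and 17792 in CD8 Flica-negative and 41804, 72792 and 73416 in CD8 Flica-positive libraries. Ly6c2, its most abundant gene, did not pass in this comparison and was lower in CD4 control than in CD8 control cells. Ccr2 did not pass either and is also in the list of T cell homing genes. The macrophage sums in controls ran from 775 to 1043 in CD4 and from 6486 to 6772 in CD8 libraries, where C1qa, Mertk and Fcgr1 were at 0 in some libraries. Mast cell or basophil genes were higher for 6 of 6 listed of 10, with sums of 136, 152 and 82.8 against 1748, 2680 and 2167, and Prss34, the most abundant, was at 0 in all control libraries. Erythroid genes were higher for 9 of 9 listed of 14, with sums of 3864, 677 and 355 against 113409, 8226 and 2178, where Hba-a1 was most abundant, the CD8 control sums were 7379, 8189 and 2039, and the highest value was that of Flica-positive replicate 1; without that library the Hba-a1 log2 change was 1.29 and no longer passed, and it was 4.27 and 4.23 and missed the threshold without CD8 Flica-negative replicate 2 or 3. Of the B cell list 14 of 16 are listed and 5 were higher, with Igkc the most abundant, and sums of 1286, 1015 and 919.96 against 7922, 10009.7 and 5231, while Fcer2a was at 0 in every Flica-positive library; the sums were 15052, 10455.8 and 10583 in CD8 control and 14056, 10489 and 11384 in CD4 control libraries. Dendritic cell genes were higher for 6 of 9 listed of 16, with sums of 2680, 2261 and 2257 against 8743, 8408 and 7268, with Cst3 the most abundant over all libraries. The Cst3 log2 change stayed at 1.38 or more as libraries were left out. Over the other alternative analyses it fell as low as 0.15, and its call was lost. The dendritic list sums of 8192, 7146 and 6854 in CD8 control libraries include Itgae at 4022, 3356 and 3309 and Cst3 at 672, 625 and 547. Megakaryocyte or platelet genes were higher for 5 of 8 listed of 16, with sums of 664, 915 and 1209.9 against 2247, 1896 and 2577, led by Nrgn, whose call was lost without CD8 Flica-negative replicate 1 or 2 or CD8 Flica-positive replicate 1 or 3, with values from 0.71 to 0.89. The 2 listed endothelial genes of 10 had sums of 53.3, 195 and 57.0 against 139.5, 169.5 and 259.5, with Flt1 the most abundant. The NK list had 6 of 11 genes listed and 1, Klrb1c, lower, with sums of 19981, 25079 and 24329 against 18041, 23883 and 14873, and its most abundant gene, Gzma, is also made by activated T cells.

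Genes with the most similar pattern were found by the Pearson correlation of log2 levels across the 15 libraries, among 2176 listed genes with a symbol and a mean of at least 50 normalized counts over all libraries. The values are a description, since the libraries share 5 groups. Closest to Itgax were Plek (r = 0.983), Snx10 (0.981), Rpa2 (0.978), Ehd4 (0.977) and Lmtk3 (0.977). Plek, a protein kinase C substrate of blood cells, had means of 708, 16187 and 11821 in CD8 control, CD8 Flica-negative and CD8 Flica-positive cells. For Itgb3 the most similar genes were Zbtb7b (r = 0.936), Il2ra (0.909), L1cam (0.901), Tox2 (0.893) and Ccr8 (0.886). Zbtb7b, the factor that directs T cells to the CD4 fate, had means of 5673 in CD4 control, 86.6 in CD8 control, 1695 in CD8 Flica-negative and 1655 in CD8 Flica-positive cells. Nearest to Cd44 were Adam8 (r = 0.997), Farp1 (0.992), Ifitm2 (0.991), Fkbp5 (0.990) and Bhlhe40 (0.988). Adam8, a surface protease, had means of 47.2, 3182 and 4589 in the CD8 groups in the same order. Itgb2l was most like Abca13 (r = 0.996), Cd33 (0.991), Bst1 (0.983), Fcgr4 (0.983) and Pgam1-ps2 (0.982). Cd33, a myeloid surface lectin, had means of 1.17, 78.0 and 1845, and Fcgr4, an antibody receptor of myeloid cells, 0.881, 34.8 and 558.

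In the mouse genome GRCm38 the 4 genes lie on 4 chromosomes. Itgax (ENSMUSG00000030789) spans chr7:128129547-128150657 on the plus strand, and of its 4790 distinct 50-base stretches of exon 8.02% are shared with Itgad. Itgb3 (ENSMUSG00000020689) spans chr11:104608000-104670476 on the plus strand and shares 0.0860% of its stretches. Itgb2l (ENSMUSG00000000157) spans chr16:96422288-96443619 on the minus strand, inside Igsf5 on the other strand, with no shared exon base and no shared stretch. Cd44 (ENSMUSG00000005087) spans chr2:102811141-102901665 on the minus strand, over the small RNA gene Gm23731 on the other strand, and shares no stretch.

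Promoters are shown because Itgax and Cd44 were high at day 7 with and without active caspase-1 while Itgb2l rose with it, so that a reader can set their start regions side by side. Promoters of 3 of the 4 genes, Itgb3 not among them, were taken from RefSeq, each 300 bases of build GRCm38.p6 around the start of the gene. They are chr7:128129300-128129599 on the plus strand for Itgax, chr16:96443565-96443864 on the minus strand for Itgb2l and chr2:102901616-102901915 on the minus strand for Cd44, each printed 5′ to 3′ on the strand of the gene, with the matches to 6 searched motifs in capitals.
Itgax: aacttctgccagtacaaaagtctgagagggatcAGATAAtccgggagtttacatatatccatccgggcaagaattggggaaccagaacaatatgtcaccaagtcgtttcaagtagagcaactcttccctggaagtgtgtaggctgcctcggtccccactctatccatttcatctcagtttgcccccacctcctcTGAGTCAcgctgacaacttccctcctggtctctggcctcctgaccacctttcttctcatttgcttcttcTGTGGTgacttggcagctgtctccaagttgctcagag
Itgb2l: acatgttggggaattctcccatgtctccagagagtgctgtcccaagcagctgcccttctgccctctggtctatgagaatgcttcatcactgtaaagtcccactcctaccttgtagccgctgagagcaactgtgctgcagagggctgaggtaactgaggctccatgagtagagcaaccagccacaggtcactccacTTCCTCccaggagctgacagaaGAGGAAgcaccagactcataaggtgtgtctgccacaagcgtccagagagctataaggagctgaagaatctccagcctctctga
Cd44: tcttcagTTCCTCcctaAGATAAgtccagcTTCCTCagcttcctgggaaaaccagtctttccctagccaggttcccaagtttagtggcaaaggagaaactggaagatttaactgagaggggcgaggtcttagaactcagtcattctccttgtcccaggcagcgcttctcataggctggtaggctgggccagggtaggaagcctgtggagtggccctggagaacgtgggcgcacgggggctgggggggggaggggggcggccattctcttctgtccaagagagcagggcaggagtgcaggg
The motifs, searched on both strands, were TGTGGT for RUNX, GAGGAA for PU.1, TGANTCA for AP-1, TTGCNNAA for C/EBP, AGATAA for the GATA family and GGTGTGA for T-box. Itgax has 1 match each to GATA, AP-1 and RUNX, Itgb2l has 2 matches to PU.1, 1 on each strand, and Cd44 has 2 matches to PU.1, on the other strand and so printed as TTCCTC, and 1 to GATA. Of 32817 promoters 28.3% hold the PU.1 letters, 16.8% RUNX, 11.2% GATA, 10.8% C/EBP, 7.81% AP-1 and 3.98% T-box. A match is a description, not a site.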

How the data were processed

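The deposited tables of the authors hold raw counts per gene for 15 libraries, aligned per the labels with STAR 2.7.1a to GRCm38; the counting tool, annotation and strand setting are not given in the sources used here. They also hold the signal column of the authors, the mean of counts divided by their DESeq2 size factors, from which the size factors were recovered (largest relative error 4.1e-10). The deposited p-values, fold changes and enrichment tables of the authors were not used. The tables list 2069, 2496, 3461 and 972 genes, 4567 together, and 0 columns of per-sample values were left unused. Depth per library is unknown, since genes that were not listed are not counted.

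The 4 genes and the gene lists were chosen with earlier results of these data known. Groups of 3 libraries were compared with the quasi-likelihood test of edgeR 4.0.16 (limma 3.58.1, R 4.3.3) with the authors' size factors and only the groups compared in the fit, adjusted over 4567 genes by the Benjamini-Hochberg method. The fit was tested on simulated data. Planned tests of the 4 genes between lineages were run, but their p-values are not given, since the libraries compared had guided the choice. Alternatives were TMM scaling, scaling by counts outside the mitochondrial genome, the Wald test of DESeq2 1.42.0, a filter at a mean of 10 normalized counts, each library left out in turn, the replicate number as a block and all 15 libraries in 1 fit. Genes other than the 4 were named when they were other integrin chains, the most abundant gene of a marker list, or among the 5 genes most similar to each of the 4. From each other adhesion or T cell list, genes whose mean level reached 50 were ranked by absolute log2 fold change. The first 3 were named for CD8 Flica-positive against CD8 Flica-negative and for CD8 Flica-negative against CD8 control cells. They are therefore the extremes of their lists. Tables and figures were made with Python 3.11.15, pandas 2.3.3, numpy 2.4.6 and matplotlib 3.10.9. Gene positions came from GENCODE M21 and promoters from RefSeq.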

Additional observations from a re-analysis of the deposited data

Results flagged for a closer look

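A test of the difference between the CD4 and the CD8 response, control to Flica-negative cells, passed for 3 of the 13 listed integrin chains other than the chosen genes. Of all listed genes 5.65% were higher and 4.60% lower in that test. Itgae had a CD4 minus CD8 log2 difference of 5.46 (edgeR, Benjamini-Hochberg adjusted p = 1.63e-06). Itgam had a difference of -3.76 (edgeR, Benjamini-Hochberg adjusted p = 0.00331). Itga3 had a difference of -2.06 (edgeR, Benjamini-Hochberg adjusted p = 0.00292). The same comparison picked out Itgb3 with a difference of -3.04, but Itgb3 was chosen on values that enter this difference, so the value is a description and no test.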

How the results depend on the processing

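In CD8 Flica-positive against CD8 Flica-negative cells 1060 genes passed, against 1666 with non-mitochondrial scaling and 703 without CD8 Flica-negative replicate 2, in a range of 703 to 1017 over the left-out libraries. In CD4 Flica-negative against CD8 Flica-negative cells 1004 genes passed, against 640 with all 15 libraries in 1 fit. Without CD4 control replicate 3, Itgax in CD4 control against CD8 control cells was -1.30 (range -2.29 to -1.30 over the left-out libraries) and its difference of responses -1.72 (range -1.72 to -0.73). Itgb3 in CD4 Flica-negative against CD8 Flica-negative cells turned to 0.00110 without CD4 Flica-negative replicate 3 (range -0.39 to 0.00110). Itgb2l in CD4 control against CD8 control cells was 0 without CD8 control replicate 1 (range -4.77 to 0), and its difference of responses -1.05 (range -1.05 to 3.74). Among other named genes, directions turned in CD8 Flica-positive against CD8 Flica-negative cells for Itga10 (-0.0569, non-mitochondrial scaling), Itgae (-0.36 with TMM, -0.65 non-mitochondrial, -0.26 to 1.21 over the left-out libraries, lowest without CD8 Flica-positive replicate 1), Itgb5 (-0.62 and -0.75), Pgam1-ps2 (-0.19 and -0.23), Nrgn (-0.34 and -0.39, TMM and non-mitochondrial) and Itgad (0.0133 and 0.23 without CD8 Flica-positive replicate 2 or 3, lowest -1.08). In CD8 Flica-negative against CD8 control cells they turned for Itga9 (-0.20 with TMM, -0.19 without CD8 control replicate 3, highest 1.195) and Itgb8 (3.77 without CD8 control replicate 2, 0.50 and 0.53 without CD8 Flica-negative replicate 1 or 2, lowest -3.78). The cause of these changes was not tested.

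With the replicate number as a replicate block, 2106 genes passed in CD8 Flica-positive against CD8 control cells, against 3230 without it. With the replicate block Cd44 was 0.22 in CD4 Flica-negative against CD8 Flica-negative cells and 0.39 in CD4 control against CD8 control cells, given as a description, and the block moved the count of calls of no other comparison by over 1.5 times. Replicates of the same number correlated between groups with r from -0.0669 to 0.108. Libraries correlated best with their own number in 5 of 6 cases for CD8 Flica-positive and CD8 Flica-negative cells, in 6 of 6 for CD4 and CD8 Flica-negative cells, in 6 of 6 for the controls and in 0 of 6 in each comparison of a day 7 group with its control.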
